A study of Mus musculus with 8 samples.

Results

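The 43 genes described here encode the machinery that copies DNA and the enzymes that supply its deoxynucleotides. They were listed by name and role, with no threshold on their values: a probe belonged to the set if its gene name in the scanner files was a listed member or an older alias, and each gene was read from its brightest probe. All 43 were found, among 15711 named features and 20002 features tested in all (a feature is 1 gene, or 1 probe without a gene name). 6 of them stood under older names, Orc1, Orc2 and Orc6 as Orc1l, Orc2l and Orc6l, Cdc45 as Cdc45l, Rfc1 as Recc1 and Gins2 as 4833427B12Rik. Every one of the 43 probes was well above background in both RNAs on all 8 arrays, and none was saturated.

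The cells were mouse pro/preB cells lacking Pax5, a factor needed for commitment to the B lineage. They came from bone marrow and were kept with IL-7 over an irradiated feeder layer of OP9 stroma. Clone 4, which is 1 clone, carried huPax5, a human Pax5 transgene switched on by doxycycline through the retrovirally delivered transactivator rtTA, and its RNA was taken after doxycycline at 10, 300 or 1000 ng/ml. The cells called Pax5sz2 had rtTA only, were labelled as treated with doxycycline without a dose, and have the same Pax5-/- background. Each of these 4 RNAs was compared with control RNA, given as clone 4 at 0 ng/ml doxycycline, on a dye-swapped pair of 2-colour Agilent arrays, with the named RNA in Cy5 on array 1 and in Cy3 on array 2. No age, time of treatment or separate culture is given in the sources used here, so behind each comparison stands 1 RNA sample, read on 2 technical arrays, which has no p-value of its own.

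Replication starts when the origin recognition complex, with Cdc6 and Cdt1, loads the ring of Mcm2 to Mcm7 onto DNA, and geminin (Gmnn) blocks further loading by binding Cdt1. Cdc7 kinase, Mcm10, Cdc45 and the GINS proteins turn the loaded ring into a moving helicase. Primase and DNA polymerase alpha lay primers, the Rfc complex loads the Pcna clamp, polymerases delta and epsilon extend the strands, and Fen1 and Lig1 finish the joints. Ribonucleotide reductase (Rrm1, Rrm2), thymidylate synthase (Tyms), thymidine kinase (Tk1) and dUTPase (Dut) make the nucleotides or keep uracil out of DNA. Many of these genes are known targets of E2F factors and peak around S phase, and cycling B cell precursors express them strongly.

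RefSeq promoter sequences (GRCm38.p6) matched 36 of the 43 genes. The 250 bases before the transcript start were searched on both strands for 4 words of the E2F site, TTTCCCGC, TTTCGCGC, TTTGCCGC and TTTGGCGC, which can overlap each other in a palindromic site. At least 1 word was present for 7 of the 36 genes, Orc1, Cdc6, Mcm5, Mcm6, Mcm7, Rfc3 and Pola1, or 16.3% of the 43 promoters listed for them, against 1.86% of all 32851 promoters. The word CCAAT, searched the same way, was in 53.5% of the members' promoters and in 33.8% of all. A match is only a match of letters and shows no binding. Below, Mcm6 and Rfc3 are shown because they hold E2F words (in capitals), and Rrm2 and Cdc45 because they were the lowest members at 1000 ng/ml as labelled and hold none of the 4 words.
Mcm6 (chr1:128359706-128359955, minus strand): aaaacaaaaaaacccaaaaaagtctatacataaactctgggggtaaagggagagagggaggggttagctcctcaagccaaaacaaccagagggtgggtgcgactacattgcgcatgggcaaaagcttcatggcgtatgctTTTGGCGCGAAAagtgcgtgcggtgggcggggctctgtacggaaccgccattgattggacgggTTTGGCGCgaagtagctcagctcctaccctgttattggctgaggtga
Rfc3 (chr5:151651209-151651458, minus strand): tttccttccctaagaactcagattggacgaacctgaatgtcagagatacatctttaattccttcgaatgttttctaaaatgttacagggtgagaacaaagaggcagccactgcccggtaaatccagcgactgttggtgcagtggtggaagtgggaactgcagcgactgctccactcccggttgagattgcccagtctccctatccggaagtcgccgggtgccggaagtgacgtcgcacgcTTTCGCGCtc
Rrm2 (chr12:24708004-24708253, plus strand): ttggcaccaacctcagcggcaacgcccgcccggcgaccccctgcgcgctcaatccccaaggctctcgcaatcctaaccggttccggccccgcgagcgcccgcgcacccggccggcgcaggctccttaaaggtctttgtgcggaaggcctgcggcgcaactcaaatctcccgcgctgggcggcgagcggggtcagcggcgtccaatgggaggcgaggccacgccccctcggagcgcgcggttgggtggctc
Cdc45 (chr16:18811973-18812222, minus strand): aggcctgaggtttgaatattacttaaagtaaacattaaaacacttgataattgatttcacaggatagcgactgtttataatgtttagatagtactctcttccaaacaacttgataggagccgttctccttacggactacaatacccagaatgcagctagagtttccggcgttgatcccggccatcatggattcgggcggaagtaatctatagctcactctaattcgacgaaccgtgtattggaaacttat
Mcm6 holds 3 words in 2 separate runs of capitals and Rfc3 holds 1, close to its start.

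Values below are log2 ratios of the named RNA over clone 4 without doxycycline, so 1 is 2-fold higher and 0 is no difference. A pair of values is array 1 and then array 2, and ± is the SD of these 2 arrays. Ranks among the 43 genes are those of the loess values. A gene passed the size rule if it was at least 2-fold higher, or lower, on both arrays. Which way the 1000 ng/ml ratios run could not be settled. Each 1000 ng/ml array correlated negatively with the array at 300 ng/ml that has its dyes the same way round. The correlations were r = -0.359 and -0.46 over all probes, tested or not. The 1000 ng/ml arrays were rehybridised slides scanned earlier with an older protocol, so the dose cannot be told apart from that batch. All its values are given as labelled and change sign if the pair is turned. Of the 16 pro-B markers, 0 to 2 were not well above background in clone 4 without doxycycline, depending on the pair. The surrogate light chain genes Vpreb1 and Igll1 were among these. Both were far higher in Pax5sz2, by 7.88 and 5.65 log2 units on average. Of the 16 markers, however, 6 were above 0 on both arrays there and 9 below, where all features gave 41.9% and 35.2%. Their median in Pax5sz2 was -0.37, with 3 at least 2-fold higher and 3 at least 2-fold lower. The transgene, doxycycline and other differences between the 2 kinds of cell cannot be told apart there.

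No replication or nucleotide supply gene passed the size rule in any of the 4 comparisons, although smaller differences were common. At 10 ng/ml 0 of 43 passed, against 1.87% of all features (0.605% higher and 1.27% lower). There, 25 of 43 were above 0 on both arrays and 7 below, where all features gave 38.6% above and 35.9% below, and the median was 0.15 (0.13 and 0.28 on the arrays) against 0.01 for all features. At 300 ng/ml 0 of 43 passed, against 3.67% (1.31% higher and 2.36% lower), with 23 above 0 on both arrays and 8 below (35.8% and 35% of all features) and a median of 0.22 (0.03 and 0.31) against 0.00. In words, more of these genes lay slightly above than below clone 4 without doxycycline at both doses.

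The 1000 ng/ml pair, as labelled, ran the other way. Here 0 of 43 passed the size rule, against 2.57% of all features (1.93% higher and 0.635% lower), while 1 was above 0 on both arrays and 28 were below (33.7% and 30.5% of all features). The median was -0.29, with -0.33 and -0.34 on the arrays, against 0.00. In Pax5sz2 0 of 43 passed, against 5.16% (2.34% higher and 2.82% lower), with 22 above 0 on both arrays and 10 below (41.9% and 35.2%), and the median was 0.11 (0.05 and 0.17) against 0.03. All 4 comparisons share RNA labelled as the same control.

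**Figure D1:**
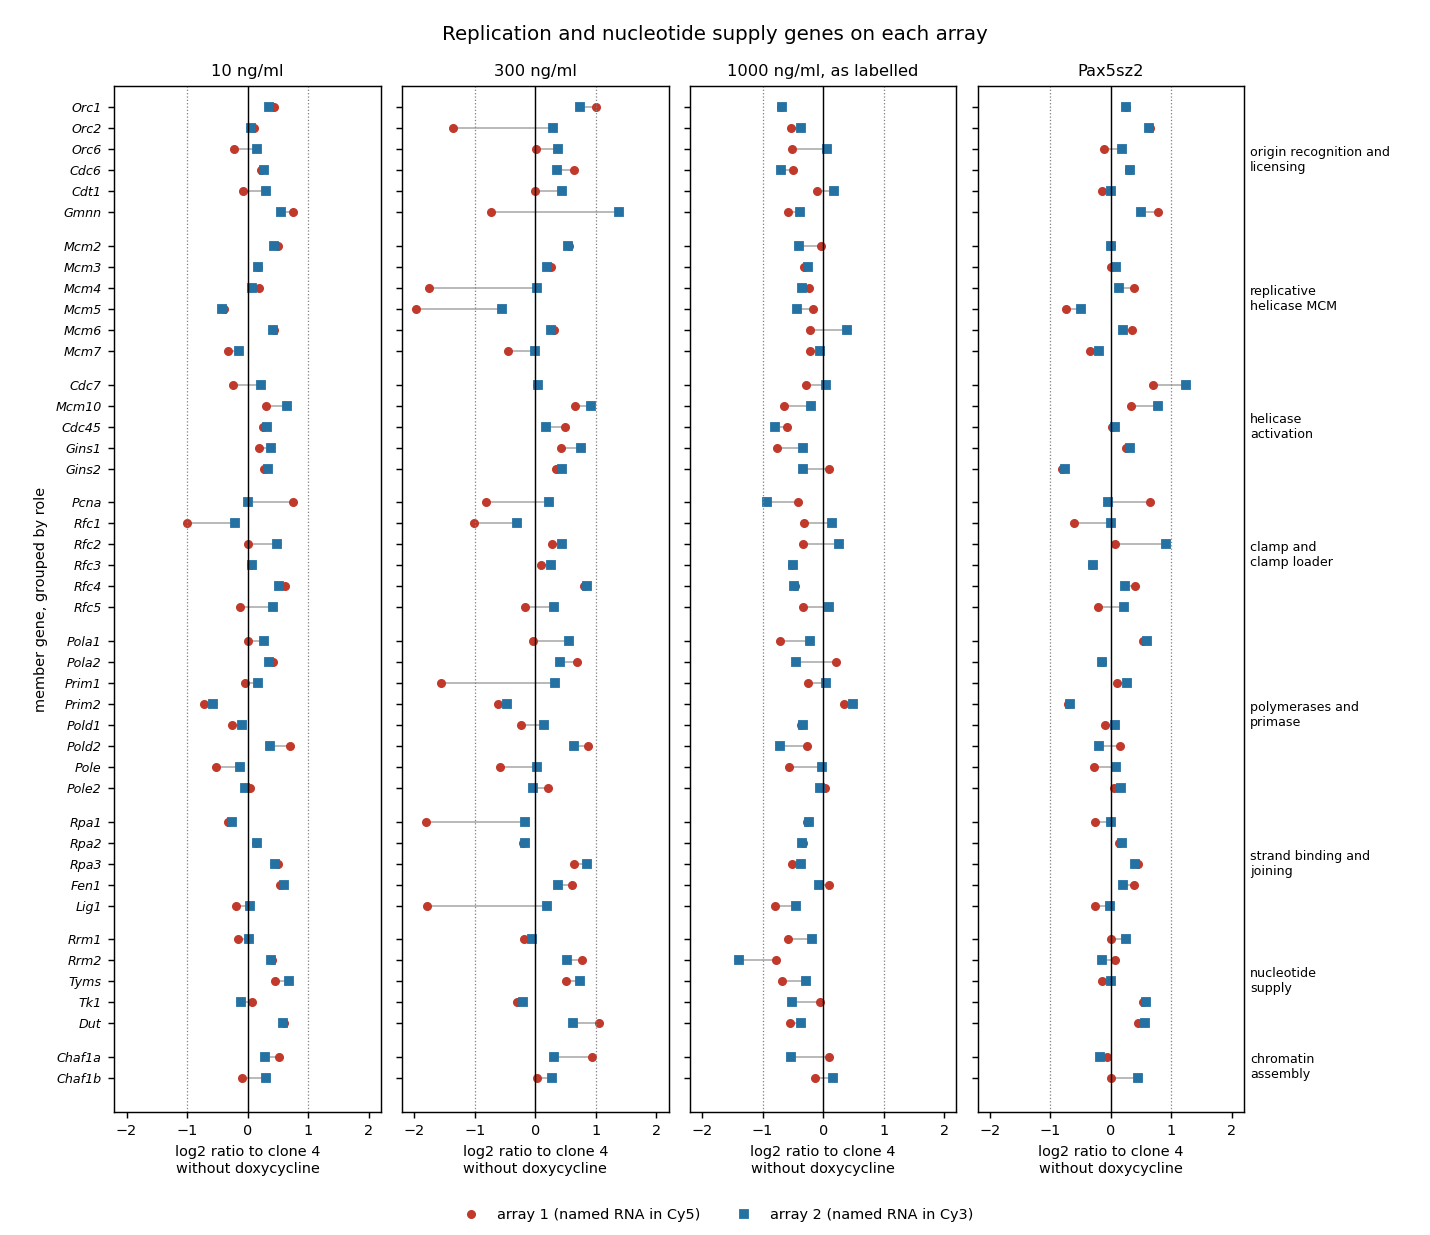
Log2 ratio of each of the 43 genes (rows, grouped by role) in the 4 comparisons (panels), with circles for array 1 and squares for array 2, joined by a line; dotted lines mark 2-fold. Most symbols lie within the dotted lines, and at 300 ng/ml 8 genes have a circle far to the left of their square.

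Median centring in place of the intensity-dependent loess gave larger medians of the same sign, 0.49, 0.45, -0.50 and 0.54 in the order above, against 0.07, 0.04, -0.02 and 0.15 for all features. The gap between members and all features in Pax5sz2 was thus 0.08 after loess and 0.40 with median centring. Under that centring 17 genes were above 0 on both arrays and 1 below at 10 ng/ml, and 12 and 7 at 300 ng/ml. The counts were 0 and 0 at 1000 ng/ml and 24 and 0 in Pax5sz2. At 1000 ng/ml, then, no gene had both arrays on the same side of 0. The median of -0.50 there is one of means over arrays on opposite sides. The shares of all features under that centring were not counted. At 300 ng/ml median centring left the 2 arrays further apart outside the first 30 rows of the array. There 38.6% of features and 27 of the 32 members differed by 1 or more, against 2.31% and 0 after loess. Under the 5 scalings tried, 34, 36, 39 and 28 of the 43 genes kept the sign of their mean in these comparisons, and those that did not were mostly close to 0.

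**Figure D2:**
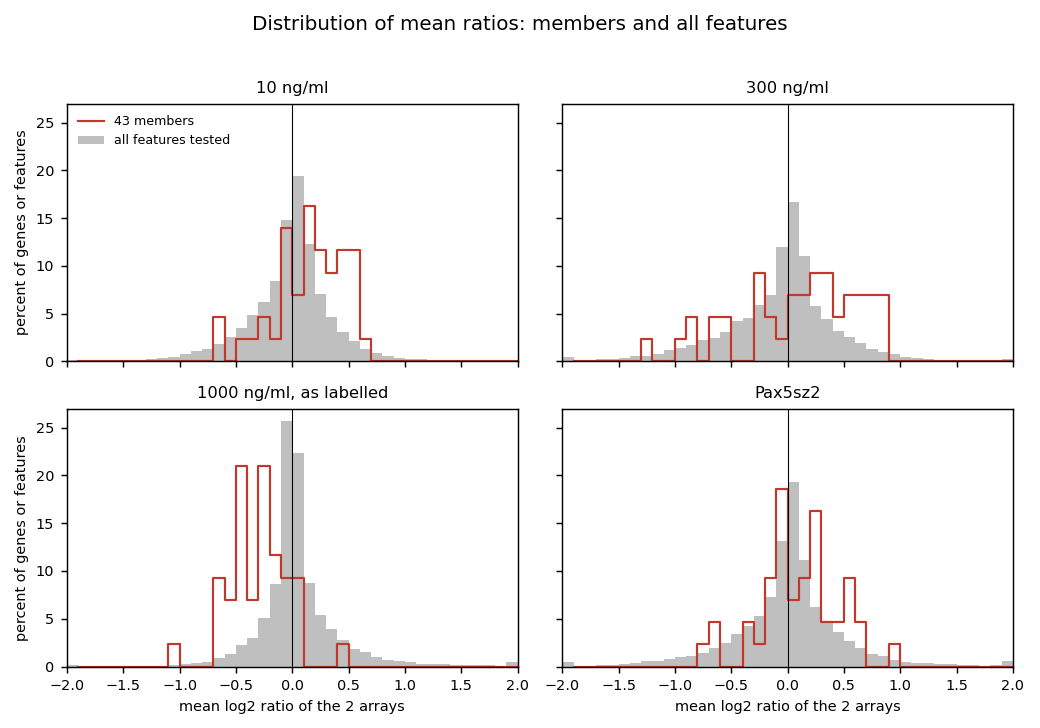
Share of genes (percent, vertical axis) in bins of 0.1 of the mean log2 ratio (horizontal axis) for the 43 members (line) and all 20002 features tested (grey bars), with the end bins holding all values beyond them. The line is shifted to the right of the bars at 10 and 300 ng/ml (medians 0.15 and 0.22) and to the left at 1000 ng/ml as labelled (-0.29).

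At 300 ng/ml the 2 arrays disagreed for 8 genes, and all 8 probes sat in the first 30 of the 206 rows of the array. Orc2, Gmnn, Mcm4, Mcm5, Pcna, Prim1, Rpa1 and Lig1 were lower on array 1 than on array 2, with differences of -2.11 to -1.05, and no member differed that much in another comparison. Of the 11 members in these rows, Mcm2, Rpa2 and Tk1 were the others. Over all features in the first 30 rows, 35.2% differed by 1 or more between the arrays, against 2.31% in the other rows, and in the other comparisons the share in the first rows was 0.179% to 0.402%. The limit of 30 rows was chosen after the values were seen and is the row of the last of the 8 genes. That all 8 lie within it therefore follows from the choice. The median of the 32 members outside these rows was 0.31 at 300 ng/ml, with 22 above 0 on both arrays and 4 below, and that of the 11 inside was -0.53.

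The scanner software's processed signals, which were detrended over the array, narrowed this gap. With them 0 members differed by 1 or more, and the share of features that did was 14.6% in the first rows and 7.54% in the others. Of the 8 genes 7 were still lower on array 1, by differences of -0.99 to -0.31, such as Lig1 with -0.75 and 0.23, and the median of the 11 members there was 0.04. Gmnn then read 1.19 on array 1 and 1.18 on array 2 and passed the size rule, where the loess values were -0.73 and 1.38. Mcm5 stayed lowest, at -1.15 and -0.51. The 300 ng/ml values of these 8 genes are therefore given array by array. The part of the position on the array in their means at that dose was not tested.

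**Figure D3:**
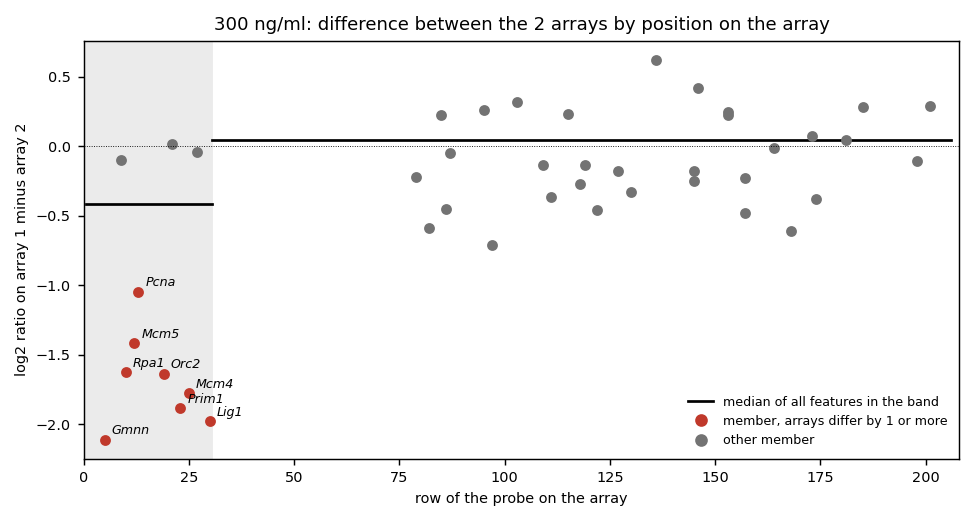
Log2 ratio on array 1 minus array 2 at 300 ng/ml (vertical axis) for each of the 43 members, by the row of its probe on the array (horizontal axis); black lines are the medians of all features in the first 30 rows (shaded) and in the others. The 8 named genes, at -2.11 to -1.05, are all in the shaded rows.

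Among the origin licensing genes, geminin was the highest at 10 ng/ml and Orc1 at 300 ng/ml, after loess. Orc1, the largest subunit of the origin recognition complex, read 0.44 and 0.36 at 10 ng/ml, 1.00 and 0.74 at 300 ng/ml, -0.69 and -0.67 at 1000 ng/ml and 0.25 and 0.25 in Pax5sz2. It was the highest of the 43 at 300 ng/ml after loess, above 2-fold on array 1 but not on array 2 or on average. With processed signals Gmnn (1.19) stood above it. With median centring Dut (1.16), Rfc4 (1.07), Mcm10 (1.01), Rpa3 (0.94) and Tyms (0.92) did, where Orc1 had 0.86. For Orc1 both arrays stood on the same side of 0 in every comparison. Gmnn read 0.75 and 0.56 at 10 ng/ml, where it was the highest member, -0.59 and -0.38 at 1000 ng/ml and 0.78 and 0.50 in Pax5sz2. Orc2 was near 0 at 10 ng/ml (0.10 and 0.05) and higher in Pax5sz2 (0.65 and 0.64), with -1.35 and 0.28 at 300 ng/ml and -0.53 and -0.36 at 1000 ng/ml.

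The loading factor gene Cdc6 averaged 0.25 ± 0.038, 0.50 ± 0.20, -0.60 ± 0.14 and 0.31 ± 0.019 in the order 10, 300 and 1000 ng/ml and Pax5sz2. A second, dimmer Cdc6 probe gave larger ratios of 0.98, 0.97, -0.03 and 1.33, and in Pax5sz2 it was above 2-fold on both arrays (1.34 and 1.31). The 2 probes of this gene thus differ by about 2-fold in Pax5sz2. Cdt1, which brings the helicase to the origin, stayed near 0 with 0.11 ± 0.27, 0.22 ± 0.32, 0.04 ± 0.20 and -0.07 ± 0.11, and its arrays at 1000 ng/ml stood on either side of 0 (-0.10 and 0.19). Orc6 averaged -0.04 ± 0.27, 0.20 ± 0.26, -0.22 ± 0.41 and 0.04 ± 0.21.

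The 6 subunits of the MCM ring did not move together. Mcm5 was below 0 on every array after loess, with -0.39 and -0.43 at 10 ng/ml, -1.97 and -0.56 at 300 ng/ml, -0.16 and -0.42 at 1000 ng/ml and -0.74 and -0.49 in Pax5sz2. With median centring its means at 10 ng/ml and in Pax5sz2 came close to 0, at -0.045 and -0.092. Mcm7 was below 0 on every array too, at -0.23 ± 0.12, -0.23 ± 0.32, -0.14 ± 0.12 and -0.27 ± 0.11, but these means turned to between 0.09 and 0.30 with median centring at the 2 lower doses and in Pax5sz2. Mcm2 and Mcm6 stood above 0 at the 2 lower doses. Mcm2 averaged 0.47 ± 0.043 and 0.54 ± 0.014 there, -0.22 ± 0.25 at 1000 ng/ml and -0.00 in Pax5sz2. Mcm6 averaged 0.42 ± 0.017, 0.28 ± 0.033 and, in Pax5sz2, 0.27 ± 0.11, while its 1000 ng/ml arrays disagreed (-0.21 and 0.39).

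Mcm3 lay within 0.3 of 0 throughout, with 0.18 ± 0.0044, 0.22 ± 0.052, -0.28 ± 0.048 and 0.04 ± 0.053. Its second probe gave 0.49 at 10 ng/ml and -0.04 at 300 ng/ml, where its arrays disagreed. Mcm4 averaged 0.13 ± 0.082, -0.29 ± 0.077 and 0.26 ± 0.17 at 10 and 1000 ng/ml and in Pax5sz2, and at 300 ng/ml read -1.76 and 0.02 (-0.31 and 0.05 with processed signals). The MCM median at 300 ng/ml was -0.00 and became 0.06 with processed signals, so no direction is given for the ring there.

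Of the 5 helicase activation genes, all 5 were above 0 on both arrays at 300 ng/ml, as were 35.8% of all features. Their median was 0.39. Cdc7, however, was close to 0 at that dose (0.02 and 0.04), and its dimmest probe gave -0.05 and -0.06. Mcm10, a scaffold of the active helicase, read 0.65 and 0.92 at 300 ng/ml, after 0.47 ± 0.25 at 10 ng/ml, with -0.42 ± 0.32 at 1000 ng/ml and 0.55 ± 0.32 in Pax5sz2. Cdc45, a part of the helicase itself, averaged 0.29 ± 0.041, 0.33 ± 0.23 and 0.04 ± 0.037 at 10 and 300 ng/ml and in Pax5sz2, and was among the lowest at 1000 ng/ml (-0.59 and -0.79). Gins1, of the GINS complex, averaged 0.29 ± 0.15, 0.59 ± 0.23, -0.55 ± 0.31 and 0.28 ± 0.043, and its second probe was close (0.48, 0.62, -0.56 and 0.39).

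In this group 2 genes had their largest mean ratio in Pax5sz2, in opposite directions. Cdc7, the kinase that fires origins (mm8, chr5:107224379-107224438), read 0.70 and 1.23 in Pax5sz2, the highest member there, against -0.01 ± 0.33, 0.03 ± 0.011 and -0.12 ± 0.23 at the 3 doses. Its second probe gave 0.76 in Pax5sz2, but another, far dimmer one gave 0.01. Gins2, the partner of Gins1 (mm8, chr8:123474704-123474763), read -0.80 and -0.76 in Pax5sz2, the lowest member, though it was above 0 at 10 ng/ml (0.30 ± 0.050) and 300 ng/ml (0.39 ± 0.073) and averaged -0.12 ± 0.30 at 1000 ng/ml. No exon or intron is given for these probes, since no mm8 annotation was used here.

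The clamp and its loader held genes of both directions. Rfc4 was above 0 at 10 ng/ml (0.57 ± 0.072), high at 300 ng/ml (0.81 and 0.86) and above 0 in Pax5sz2 (0.31 ± 0.11), with -0.47 ± 0.0071 at 1000 ng/ml. Rfc1, the largest loader subunit, was low instead, at -0.998 and -0.21 at 10 ng/ml, -1.01 and -0.30 at 300 ng/ml and -0.62 and -0.00 in Pax5sz2, with -0.09 ± 0.33 at 1000 ng/ml. Its values were always lower on array 1. With median centring its mean in Pax5sz2 became 0.16. Pcna, the sliding clamp, read -0.42 and -0.92 at 1000 ng/ml, the 4th lowest member there, and its arrays disagreed at 10 ng/ml (0.75 and -0.00), at 300 ng/ml (-0.81 and 0.23) and in Pax5sz2 (0.64 and -0.05).

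Rfc2 averaged 0.25 ± 0.34, 0.36 ± 0.13, -0.04 ± 0.42 and 0.49 ± 0.59, but its second probe gave -0.13 in Pax5sz2. Rfc3 averaged 0.06 ± 0.014, 0.17 ± 0.13, -0.51 ± 0.010 and -0.30 ± 0.0045, with a mean of 0.05 in Pax5sz2 under median centring. Rfc5 stayed within 0.15 of 0, at 0.14 ± 0.38, 0.07 ± 0.34, -0.11 ± 0.30 and -0.00 ± 0.30. The 5 loader subunits, which act as 1 complex, therefore had no common ratio.

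Among polymerases and primase, the large primase subunit Prim2 (mm8, chr1:33398434-33398493) stood on the other side of 0 from most members at the doses. It read -0.73 and -0.58 at 10 ng/ml, where it was the lowest member, -0.61 and -0.48 at 300 ng/ml, 0.34 and 0.49 at 1000 ng/ml and -0.71 and -0.67 in Pax5sz2. It was the 1 member above 0 on both arrays at 1000 ng/ml as labelled. Its dimmer second probe gave smaller ratios of -0.29, -0.09, -0.04 and -0.30. The small primase subunit Prim1 averaged 0.06 ± 0.14, -0.10 ± 0.22 and 0.18 ± 0.11 at 10 and 1000 ng/ml and in Pax5sz2, and read -1.56 and 0.33 at 300 ng/ml.

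Pola1, the catalytic subunit of polymerase alpha, was higher in Pax5sz2 (0.53 and 0.60), with 0.14 ± 0.19, 0.26 ± 0.42 and -0.46 ± 0.36 at the doses. Its partner Pola2 was above 0 at the 2 lower doses instead (0.38 ± 0.040 and 0.55 ± 0.20), with -0.11 ± 0.47 at 1000 ng/ml and -0.15 ± 8.7e-05 in Pax5sz2, and a dim second probe gave -0.14 and -0.24 at the lower doses. Pold2, the accessory subunit of polymerase delta, averaged 0.53 ± 0.23, 0.75 ± 0.16, -0.49 ± 0.32 and -0.02 ± 0.24. The catalytic subunit Pold1 averaged -0.18 ± 0.11, -0.04 ± 0.27, -0.35 ± 0.016 and -0.02 ± 0.12, and its second probe gave 0.15, 0.32, -0.34 and 0.19. Pole, catalytic for polymerase epsilon, read -0.53 and -0.13 at 10 ng/ml and averaged -0.28 ± 0.43, -0.29 ± 0.39 and -0.10 ± 0.25 in the others, with a much dimmer probe at -0.97 at 10 ng/ml. Pole2 stayed within 0.11 of 0, at -0.00 ± 0.057, 0.09 ± 0.18, -0.01 ± 0.052 and 0.11 ± 0.086.

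The 3 subunits of replication protein A, which coats single strands, differed from each other. Rpa3, the smallest, averaged 0.48 ± 0.032, 0.75 ± 0.16, -0.44 ± 0.10 and 0.43 ± 0.037. Rpa1, the largest, was below 0 at 10 ng/ml (-0.29 ± 0.044, or 0.01 with median centring), read -1.80 and -0.17 at 300 ng/ml and averaged -0.26 ± 0.023 and -0.13 ± 0.18 in the others. Rpa2 averaged 0.15 ± 0.020, -0.19 ± 0.030, -0.34 ± 0.016 and 0.15 ± 0.038, and its second probe gave -0.08 at 10 ng/ml. The flap nuclease gene Fen1 read 0.53 and 0.60 at 10 ng/ml and averaged 0.50 ± 0.16, 0.01 ± 0.12 and 0.29 ± 0.12. The ligase gene Lig1 averaged -0.08 ± 0.17, -0.63 ± 0.25 and -0.14 ± 0.17, and read -1.79 and 0.19 at 300 ng/ml.

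The nucleotide supply genes had the highest median of the 8 roles at the 2 lower doses (0.39 and 0.62, after loess). All 5 were below 0 on both arrays at 1000 ng/ml as labelled (median -0.46), as were 30.5% of all features. Dut (mm8, chr2:124948847-124948906) read 0.60 and 0.58 at 10 ng/ml, 1.05 and 0.62 at 300 ng/ml, -0.55 and -0.37 at 1000 ng/ml and 0.45 and 0.57 in Pax5sz2. The means of its second probe had the same sign in each (0.72, 0.60, -0.56 and 0.63). At 300 ng/ml, however, the arrays of that second probe disagreed (-0.02 and 1.22). It lies in row 2 of the array, among the first rows where the arrays often differed at this dose. Tyms read 0.45 and 0.69 at 10 ng/ml and averaged 0.62 ± 0.16, -0.48 ± 0.28 and -0.08 ± 0.11 in the others. A second Tyms probe gave 0.42 and 0.41 at the lower doses, while a dim one gave -0.38 and -0.27. Rrm2, the regulated subunit of ribonucleotide reductase (mm8, chr12:25302833-25302889), read 0.40 and 0.39 at 10 ng/ml, 0.76 and 0.53 at 300 ng/ml, -0.78 and -1.39 at 1000 ng/ml and 0.06 and -0.15 in Pax5sz2. At 1000 ng/ml it was the lowest member, past 2-fold on average but not on array 1.

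Rrm1, the large and more constant subunit, averaged -0.07 ± 0.13, -0.12 ± 0.095, -0.38 ± 0.29 and 0.13 ± 0.17. Tk1 was instead higher in Pax5sz2 (0.56 ± 0.039) than at the doses (-0.01 ± 0.13, -0.26 ± 0.068 and -0.29 ± 0.32). So Dut, Tyms and Rrm2, but neither Rrm1 nor Tk1, were above 0 on both arrays at 10 and 300 ng/ml. Of the chromatin assembly factor genes, which place histones behind the fork, Chaf1a averaged 0.41 ± 0.17, 0.62 ± 0.44, -0.22 ± 0.44 and -0.12 ± 0.074. Chaf1b averaged 0.10 ± 0.28, 0.16 ± 0.18, 0.02 ± 0.22 and 0.23 ± 0.32, with -0.14 and 0.17 on the 1000 ng/ml arrays.

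Between 300 and 10 ng/ml the median of the difference in the members' ratios was 0.05, and -0.045 with median centring. The comparison is indirect, through the shared control, and has 1 sample at each dose. After loess, Rpa2 was the 1 member on opposite sides of 0 on both arrays at these doses. Its probe lies in the first 30 rows, and with processed signals its 300 ng/ml mean was 0.26, on the same side as at 10 ng/ml.

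The only test over samples that the design allows is a limma fit of the mean ratio over the 3 doses, each dose counting once, with Benjamini-Hochberg adjustment over all 20002 features. As labelled, 0 of 43 members passed an adjusted p of 0.05, like 0 of all features (0% higher and 0% lower), and the lowest adjusted p was 0.701. At an unadjusted p under 0.05 there were 2 members, both lower, where 3.16% of all features were higher and 2.76% lower. With the 1000 ng/ml pair turned, again 0 members passed (lowest limma adjusted p = 0.12), with 18 higher and 1 lower at an unadjusted p under 0.05, where 9.82% and 14.7% of all features were. Without that pair, which leaves 2 samples, 8 members passed, against 5.56% of all features higher and 8.52% lower.

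The 8 members past the adjusted threshold had limma adjusted p between 0.0387 and 0.0468. They were 6 higher genes, Mcm2, Rfc4, Pold2, Fen1, Tyms and Dut, and 2 lower ones, Rfc1 and Prim2. Dut had the largest effect, 0.71 with a standard error of 0.093, and was above 0 on the 4 technical arrays of the 2 RNAs. Prim2 averaged -0.60 with a standard error of 0.068 and was below 0 on all 4. The fit takes the mean of each dose, so the spread between its arrays does not enter directly. Rfc1, for example, read -0.998 and -0.21 at 10 ng/ml. The Pax5sz2 coefficient of the same fit, which borrows the spread of the doses for its 1 sample, gave 0 members as labelled (0% of all features higher and 0% lower), turned (0.28% and 0.09%) and without the 1000 ng/ml pair (1.37% and 1.58%). Cdc7 came nearest in the last, at 0.97 with a limma adjusted p of 0.0503.

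Other genes of the same pathways, from lists that hold no member, included some past the size rule, unlike the members. Of 27 other replication fork genes, 0 were past the size rule at 10 ng/ml, with 11 above 0 on both arrays and 9 below. At 300 ng/ml 1 was lower, and at 1000 ng/ml 0 passed, with 2 above and 19 below. In Pax5sz2 3 of the 27 were at least 2-fold lower, against 2.82% of all features. These included Chtf8, of an alternative clamp loader, at -2.03 and -1.88, and Orc3 at -1.50 and -1.63. The last was the fork protection gene Timeless, at -1.36 and -1.65. Orc3 was also the 1 lower gene at 300 ng/ml (-1.09 and -1.17). But other probes of Orc3 spread from -0.14 to 0.42 in Pax5sz2 and from -0.39 to 0.43 at 300 ng/ml, and another Timeless probe gave -0.15.

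Of 24 other nucleotide synthesis genes, 17 were above 0 on both arrays at 10 ng/ml and 3 below, and 13 and 4 at 300 ng/ml. None of them passed the size rule at these doses or in Pax5sz2, where 12 were above and 6 below. At 1000 ng/ml as labelled, with 5 above and 15 below, the salvage kinase gene Dck was lower (-1.41 and -1.39, with other probes at -1.20 and -1.48) and Samhd1, which degrades deoxynucleotides, was higher (1.39 and 1.23, though another probe gave 0.20). Of all features, 0.635% were at least 2-fold lower in that pair and 1.93% at least 2-fold higher. Replication-coupled chromatin genes, 10 in number, had none past the size rule and medians of 0.25, 0.17, -0.36 and 0.22.

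The lists that drive or follow S phase showed the larger ratios at 1000 ng/ml. Of 15 S phase regulators 14 were below 0 on both arrays there as labelled, with a median of -0.80, and 2 were at least 2-fold lower, the E2F genes E2f2 (-1.90 and -1.90) and E2f7 (-1.19 and -1.27, with another probe at -0.38). At 10 and 300 ng/ml none of the 15 passed, with medians of 0.11 and 0.18. In Pax5sz2 E2f8 was higher (1.12 and 1.16). Of 20 mitosis genes 19 were below 0 on both arrays at 1000 ng/ml, with a median of -0.62 and none past the size rule, and the medians elsewhere were 0.17, 0.25 and 0.44. In Pax5sz2 17 were above 0 on both arrays and 1, the mitotic kinase gene Aurka, was at least 2-fold higher (1.33 and 1.30).

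**Figure D4:**
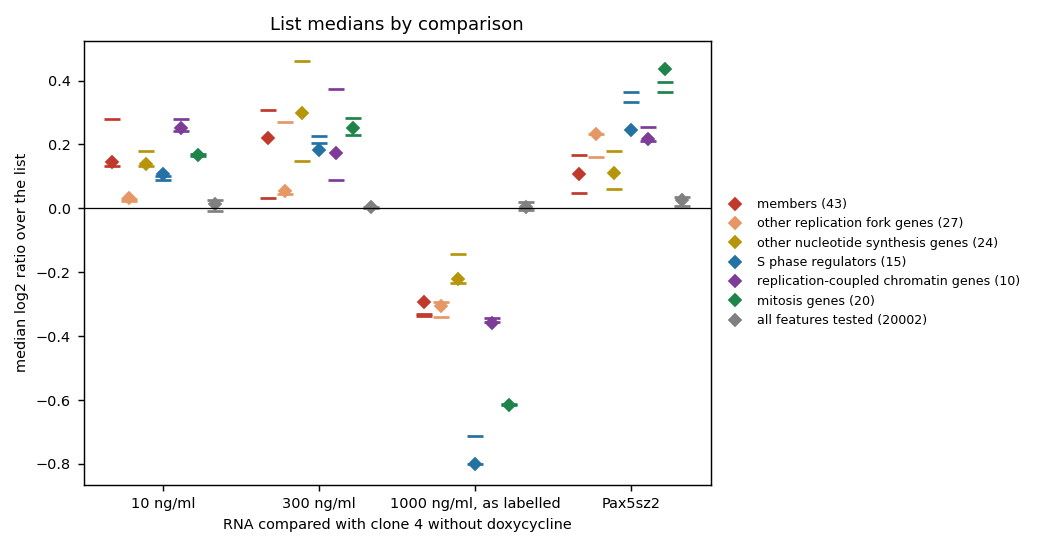
Median log2 ratio (vertical axis) of the members, 5 related lists and all features tested in each comparison (horizontal axis); diamonds are medians of the mean of both arrays and short bars those of each array. The members (-0.29) and S phase regulators (-0.80) are below 0 at 1000 ng/ml as labelled and above 0 in the 3 other comparisons.

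Markers of other cells differed in some of these comparisons. Of 20 stromal feeder markers, 16 were above 0 on both arrays and 2 below at 10 ng/ml, and 14 and 1 at 300 ng/ml. All features gave 38.6% and 35.9% at 10 ng/ml, and 35.8% and 35% at 300 ng/ml. The summed log2 level of the stromal markers was 15.48 to 15.64 at 10 ng/ml against 14.60 to 14.67 in the control channel. At 300 ng/ml it was 15.61 to 15.85 against 14.30 to 14.61. At 1000 ng/ml it was 14.60 to 14.78 against 14.70 to 14.81, and in Pax5sz2 15.37 to 15.42 against 14.67 to 14.68. At 1000 ng/ml 4 of the 20 were above 0 on both arrays and 11 below, where all features gave 33.7% and 30.5%. In Pax5sz2 the counts were 9 and 6, near the 41.9% and 35.2% of all features, and the markers' median ratio was 0.07. Lum was not well above background in the control RNA of any pair. The summed level of 20 myeloid markers was 16.54 to 16.70 in the 1000 ng/ml RNA and 14.53 to 14.69 in its control. The control channels of the other pairs had 16.34 to 16.56. In the other named RNAs it was 16.15 to 16.36 (10 ng/ml), 15.39 to 15.51 (300 ng/ml) and 16.02 to 16.11 (Pax5sz2). Of the 16 tested, 15 were above 0 on both arrays and 1 below at 1000 ng/ml as labelled. The counts were 4 and 10 at 10 ng/ml, 4 and 11 at 300 ng/ml and 4 and 8 in Pax5sz2. Of these 20 myeloid markers, 13 were not well above background in the 1000 ng/ml control, Mpo and Csf1r among them, against 5 in the other controls. In the 1000 ng/ml RNA itself 8 were not, against 4 in the other named RNAs. These calls are not alike, since the scanner software's multiplier for them was 2.6 in the 1000 ng/ml pair and 13 in the others. In the 1000 ng/ml control 40.4% and 43.3% of all spots were well above background, against 61.9% to 70.0% in the other controls. The 14 T lineage markers summed to 11.86 to 11.96 in the 1000 ng/ml control and to 13.55 to 13.92 in the other controls. In the named RNAs they summed to 13.46 to 13.72 (10 ng/ml), 12.69 to 12.97 (300 ng/ml), 13.37 to 13.44 (1000 ng/ml) and 13.29 to 13.54 (Pax5sz2). Of the 12 tested, 2 were above 0 on both arrays and 6 below at 10 ng/ml, and 2 and 8 at 300 ng/ml. The counts were 7 and 1 at 1000 ng/ml as labelled and 5 and 4 in Pax5sz2. The part of these cells, or of the RNA labelled as control, in the members' ratios was not tested. In bulk RNA, fewer cycling cells and less RNA of these genes in each cell cannot be told apart.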

How the data were processed

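The data are 8 dual-colour Agilent arrays of 43790 spots, 41534 of them non-control. The deposited scanner files give, per the file headers, mean spot and local background intensity values of both channels, processed intensity values (background-subtracted, dye-normalized and, except in the 1000 ng/ml pair, detrended by multiplication) and a log10 ratio, all made with Feature Extraction 10.5.1.1, and probe positions on mm8. The deposited series matrix of log10 values equals that ratio, with the sign changed for arrays that carry the named RNA in Cy3, with deviations up to 5e-06. Groups came from the labels.

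Background was corrected by normexp with an offset of 50 and log2 ratios were normalized by loess in limma 3.58.1 (R 4.3.3), with control spots at weight 0 and outlier spots left out. Each gene was read from the brightest of its probes, and a feature was tested if, in at least 1 comparison, both arrays called 1 of its RNAs well above background. Levels of a channel were set by Aquantile. Tests were two-sided, with eBayes and an adjusted p threshold of 0.05, and the control RNA's own spread does not enter; the 1 Pax5sz2 sample is assumed to vary like the doses. Alternatives covered scaling, background, probe choice, the dim filter, each array alone and the 1000 ng/ml pair.

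The members and lists were chosen with earlier results of these data known. All members are named; members with the 4 highest and 4 lowest means in a comparison are given by array, and of other lists those past the size rule. The steps were tested on simulated data. Promoters are those of RefSeq, read by symbol, 1 start a gene for printing. Figures used Python 3.11.15 and matplotlib 3.10.9.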

Additional observations from a re-analysis of the deposited data

Results flagged for a closer look

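In the pairs listed here every array of one dose lay on one side of 0 and every array of the other dose on the opposite side. The difference itself was not tested, since each dose has 1 sample.

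Replication and nucleotide supply genes stood mostly above 0 at 10 and 300 ng/ml and below it at 1000 ng/ml as labelled. The members' median ratio was higher by 0.51 at 300 ng/ml than at 1000 ng/ml, and by 0.44 at 10 ng/ml than at 1000 ng/ml. With the sign of the 1000 ng/ml pair turned, the medians and the genes named in the next 2 paragraphs would lie on the same side in each of these pairs. Members such as Mcm5 and Mcm7, below 0 at 10 and 1000 ng/ml, would then lie on opposite sides.

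At 300 against 1000 ng/ml, 15 members were on opposite sides. The share of all features that were was not counted. Over all probes the arrays of these doses correlated negatively (r = -0.359 and -0.46), so the count is not read as particular to the members. The differences in log2 ratio were Orc1 1.55, Cdc6 1.10, Mcm2 0.76, Mcm3 0.50, Mcm10 1.21, Cdc45 1.02, Gins1 1.15, Rfc3 0.69, Rfc4 1.31, Prim2 -0.96, Pold2 1.24, Rpa3 1.19, Rrm2 1.73, Tyms 1.11 and Dut 1.30. Rrm2 and Orc1 had the largest, and Prim2 the 1 negative value.

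At 10 against 1000 ng/ml, 20 members were on opposite sides, and the share of all features was not counted here either. These differences were Orc1 1.08, Orc2 0.52, Cdc6 0.84, Gmnn 1.13, Mcm2 0.69, Mcm3 0.46, Mcm4 0.42, Mcm10 0.89, Cdc45 0.98, Gins1 0.84, Rfc3 0.57, Rfc4 1.04, Pola1 0.61, Prim2 -1.07, Pold2 1.02, Rpa2 0.49, Rpa3 0.92, Rrm2 1.48, Tyms 1.05 and Dut 1.05. Prim2 again had the 1 negative value.

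Between the 2 lower doses only Rpa2 was on opposite sides, by -0.33 at 300 ng/ml minus 10 ng/ml. Its probe lies in the first 30 rows of the array, and with processed signals its 300 ng/ml mean was 0.26, above 0 as at 10 ng/ml. Its second probe was below 0 on all 4 of these arrays.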

How the results depend on the processing

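No paired analysis was possible because the labels give no replicate numbers and the 2 arrays of a comparison share their RNAs. Of the values and counts recomputed under the alternatives, 128 stayed the same, 22 moved and 2 changed sign. Staying the same meant within the spread of the 2 arrays or, for counts, within 1.5 times. The 128 are no measure of stability, since many were counts of 0 that stayed 0. Changing the dim filter could not alter a member median, as every member's probe was well above background. Keeping outlier spots left all member medians as they were. Median centring moved the members' medians to 0.49 (10 ng/ml), 0.45 (300 ng/ml), -0.50 (1000 ng/ml) and 0.54 (Pax5sz2), turned the 300 minus 10 ng/ml difference to -0.045, and put 1 member at least 2-fold higher in Pax5sz2 and 1 lower at 300 ng/ml. Turning the 1000 ng/ml pair made its median 0.29. That median was -0.30 with processed signals and with the series matrix, and -0.29 as the mean of all probes of a gene. With either of the first 2, 1 member, Gmnn, was at least 2-fold higher at 300 ng/ml. Without replicate 1 or 2, medians ran from 0.13 to 0.28 (10 ng/ml), 0.03 to 0.31 (300 ng/ml), -0.34 to -0.33 (1000 ng/ml) and 0.05 to 0.17 (Pax5sz2), and the 300 minus 10 ng/ml difference from 0.073 to 0.096. On single arrays, members at least 2-fold higher numbered 1 to 2 at 300 ng/ml and 0 to 1 in Pax5sz2, and lower 0 to 7 at 300 ng/ml and 0 to 1 at 1000 ng/ml. The limma dose effect called 8 members without the 1000 ng/ml pair and 0 in every other setting, and the Pax5sz2 effect 0 in all. Leaving out the 8 members whose 300 ng/ml arrays differ, or the 11 in the first 30 rows, both chosen after seeing the data, gave a 300 ng/ml median of 0.28 or 0.31. Technical arrays of 1 RNA limit the precision: spread between cultures is unknown.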
